A study of Mus musculus with 9 samples.

Results

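Myc, its partner Max and 7 genes of polyamine metabolism were followed in mouse LLC1 cells after contact with T cells. The 9 genes (Myc, Max, Odc1, Srm, Sms, Amd1, Oaz1, Azin1 and Sat1) were taken by symbol from the 2 deposited expression tables, and all 9 were found in both, among 19305 genes listed in at least 1 of them. LLC1 is an established Lewis lung carcinoma line of the C57BL/6 mouse. The cells were kept for 24 h in contact with T cells generated in the laboratory, at 1 T cell per LLC1 cell. Th9 libraries came from cultures with T cells labelled Th9, Th17 libraries from cultures with T cells labelled Th17, and Th0 libraries from cultures with Th0 cells, which serve as the control of both. Each group had 3 libraries of total RNA, made after CD4+ cells had been sorted away. LLC1 cells kept without T cells were not analysed here, so each difference is between kinds of T cell and not against no T cell.

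MYC is a transcription factor that pairs with MAX, binds E-boxes in DNA and drives genes of growth, ribosome production and metabolism. Among its best known targets is Odc1, whose product ornithine decarboxylase makes putrescine in the rate-limiting first step of polyamine synthesis. Putrescine is then extended to spermidine and spermine, small positively charged molecules that dividing cells, lung tumour cells among them, need for translation and nucleic acid function. A second layer acts on the ODC1 protein itself: antizyme (OAZ1) sends it to the proteasome, and the antizyme inhibitor (AZIN1) takes antizyme up.

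Each value is a normalized count, rounded by the authors to a whole number, from 1 of 2 tables that were normalized separately: one with the Th9 and Th0 libraries, the other with the Th17 libraries and the same Th0 libraries. Depth was about 12718687 to 17504850 reads assigned to genes per library. Th0 replicate 1 stood apart, with 31.1% of its reads on mt-Rnr1, mt-Rnr2 and Gm26917, against 14.9% to 21.8% in the other 8 libraries. Nothing in the labels tells if the replicates are separate cultures, so p-values reflect only the spread among these 9 libraries, which may be technical. Of 11 markers written down for LLC1 cells, 9 were listed, and their summed normalized count was 108025 to 113643 in Th9 libraries against 99354 to 133983 in Th0 libraries, and 129491 to 130358 in Th17 libraries against 102182 to 136881 in Th0 libraries. The lowest Th0 sum in both tables was that of replicate 1. The epithelial markers Cdh1 and Epcam were among the 11 and were not listed.

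Max and Sms were chosen for sequence because they hold the motif that MYC and MAX bind, though neither passed the test against Th0. Whether promoter motifs had a part in the differences was not tested. A stretch before the start of Odc1, which moved most with Th9, and stretches around the starts of Max and Sms are shown. They are on the gene's strand, from RefSeq on GRCm38.p6. For Max and Sms they run from 250 bases before the start to base 20 of the transcript. For Odc1 the stretch begins 250 bases before the start used, chr12:17544873, and ends before that start, at chr12:17544813. An annotated exon of Odc1 begins at chr12:17544794, and the stretch was ended at base 20 of that exon. Odc1 lies on the plus strand (stretch chr12:17544623-17544813), Max on the minus strand (chr12:76962229-76962498) and Sms on the minus strand (chrX:157492268-157492537). Capitals mark the MYC-MAX E-box, CACGTG, which reads the same on both strands, and the GC box, bound by SP1-type factors, GGGCGG or its reverse complement CCGCCC.
Odc1: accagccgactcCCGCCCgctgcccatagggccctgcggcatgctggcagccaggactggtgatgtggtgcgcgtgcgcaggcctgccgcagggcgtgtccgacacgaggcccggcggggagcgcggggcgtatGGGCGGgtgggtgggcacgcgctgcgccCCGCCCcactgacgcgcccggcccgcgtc
Max: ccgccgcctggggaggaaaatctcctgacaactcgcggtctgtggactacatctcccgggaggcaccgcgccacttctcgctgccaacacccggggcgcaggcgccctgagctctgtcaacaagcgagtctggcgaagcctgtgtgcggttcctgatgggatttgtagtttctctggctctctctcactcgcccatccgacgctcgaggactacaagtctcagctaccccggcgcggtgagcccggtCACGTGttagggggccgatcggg
Sms: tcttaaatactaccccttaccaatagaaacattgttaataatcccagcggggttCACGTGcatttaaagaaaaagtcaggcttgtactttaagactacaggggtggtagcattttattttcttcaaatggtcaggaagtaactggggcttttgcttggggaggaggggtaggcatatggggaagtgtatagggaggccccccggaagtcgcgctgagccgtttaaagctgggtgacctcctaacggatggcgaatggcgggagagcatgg
Within 250 bases before to 20 bases after the start, Odc1 had 0 E-boxes and 4 GC boxes, 3 of them in the stretch shown. Sequence outside that window was not searched, so these counts say nothing of sites elsewhere in a gene. Max had 1 E-box, whose first base lay at -3 from the start (+1), and Sms had 1 at -196. In the same window an E-box stood in 6.57% of 32851 promoters and a GC box in 34.1%. The promoter table matched 6 of the 9 genes. Myc, Srm and Azin1 were not matched. Amd1 had 1 GC box, Sat1 had 2 and Oaz1 had neither motif, and a further annotated start of Sms had 4 GC boxes, of which 3 overlapped one another.

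Myc RNA was higher with Th9 cells, and Odc1 rose with it by about the same factor. Oaz1, the brake on the ODC1 protein, was called lower, but its groups overlapped and the call was lost in 5 of 14 alternatives. The enzymes that extend putrescine, Srm, Sms and Amd1, did not pass the test, nor did Max, Azin1 or Sat1. Of the 9 genes, 2 were called higher and 1 lower with Th9 (limma-trend, Benjamini-Hochberg adjusted p under 0.05 over 14475 genes), while 25.2% of all genes tested were called, 13.4% higher and 11.9% lower. The normalized counts of 5 of the 9 were higher in every Th9 library than in every Th0 library and those of 0 were lower throughout, against 21.4% and 19.2% of all genes (40.6% in either direction). With 3 of 9 called, the share was near the background and is no result about the set, whereas the log2 fold changes of Myc and Odc1 stood at percentiles 97.8 and 98.1 of all genes tested.

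**Figure D1:**
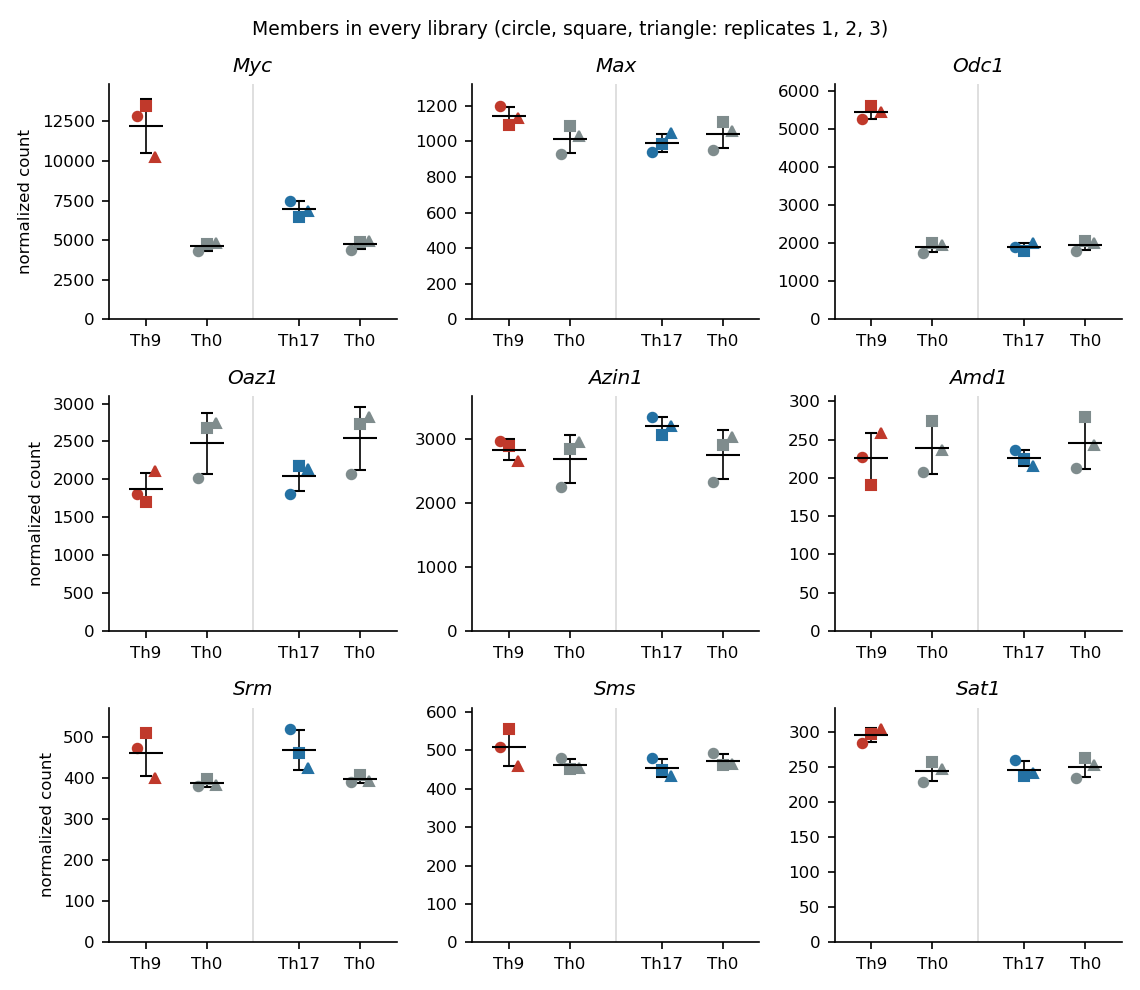
Normalized count (y axis, linear, from 0) of each of the 9 genes in every library, with Th9 and Th0 of the one table left of the grey line and Th17 and Th0 of the other right of it. Points are libraries, the long bar is the mean and the whiskers are 1 SD (n = 3). Th9 libraries sit between 10269 and 13481 for Myc and between 5250 and 5601 for Odc1, above every other library in both panels.

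Myc (ENSMUSG00000022346, chr15:61985341-61990374, plus strand, GRCm38) had normalized counts of 12825, 13481 and 10269 in Th9 libraries and 4288, 4766 and 4837 in Th0 libraries. All Th9 libraries lay far above all Th0 libraries, with Th9 replicate 3 the lowest of its group. The means were 12192 ± 1697 with Th9 and 4630 ± 299 with Th0 (SD, n = 3 each), a log2 fold change of 1.39 (SE 0.12, 95% interval 1.14 to 1.64; 2.62-fold) on the log2(value + 1) scale, with a limma adjusted p of 6.8e-06. Over 14 alternative settings, among them each library left out in turn, the log2 fold change was 1.31 to 1.51 and the call held. In bulk RNA, a change in RNA per cell and a change in the mix of cells cannot be told apart.

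T cell RNA moved with this result. All 26 T cell markers were listed in the table with Th9, and their summed normalized count was 1791 to 2611 in Th9 libraries and 108 to 255 in Th0 libraries. Of the 22 tested, 20 were called higher with Th9 and 0 lower, where 13.4% and 11.9% of all genes were. A marker near 0 with Th0 could reach the filter mean of 10 only if it was high with Th9, so this count leans to higher. With no filter, 24 of the 26 were called higher and 0 lower. The CD3 chain gene Cd3g stood at 352, 346 and 254 in Th9 libraries against 8, 5 and 2 in Th0 libraries. The pan-leukocyte gene Ptprc stood at 551, 447 and 401 with Th9 against 51, 25 and 6 with Th0. Cd3e stood at 86, 61 and 54 with Th9 against 5, 3 and 2 with Th0, and Cd6 and Trbc1 were at 0 in all Th0 libraries. Cd4, the marker used for the sort, was at 23, 23 and 17 with Th9 and at 10, 8 and 18 with Th0, where the groups did not separate by more than their spread (log2 fold change 0.82, limma adjusted p of 0.114). B cell markers summed to 137 to 156 with Th9 and 154 to 405 with Th0. Of the 6 tested, 2 were called lower, where 11.9% of all genes were. These were Igkc (log2 fold change -2.66, limma adjusted p of 0.0065) and Ebf1 (-1.26, 0.00707). Myeloid markers summed to 311 to 374 with Th9 and 257 to 455 with Th0. Of the 6 tested, 1 was called lower and 1 higher, where 11.9% and 13.4% of all genes were. These were Lyz2, lower (-3.36, limma adjusted p of 0.00163), and Cd14, higher (0.86, 0.0135). Activated T cells also express Myc and Odc1, and the part of T cell RNA in the Th9 results given here was not tested.

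Some markers of the LLC1 cells differed with Th9 as well. Of the 9 tested, 2 were called lower and 1 higher, where 11.9% and 13.4% of all genes were, so the count was near the background. The keratin gene Krt8 had 956, 1050 and 1255 with Th9 and 1688, 2470 and 2282 with Th0 (log2 fold change -0.97, limma adjusted p of 3.2e-04), and Cav1, which encodes caveolin, was lower by a log2 fold change of -0.38 (limma adjusted p of 0.0244). Axl, a receptor kinase, had 5964, 5893 and 6143 with Th9 and 4247, 4463 and 4598 with Th0 (0.44, limma adjusted p of 0.00277). Without Th0 replicate 1, 7 of the 9 were called lower and 1 higher, where 19.1% and 18.1% of all genes were. The part of these differences in the Myc and Odc1 results was not tested.

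**Figure D2:**
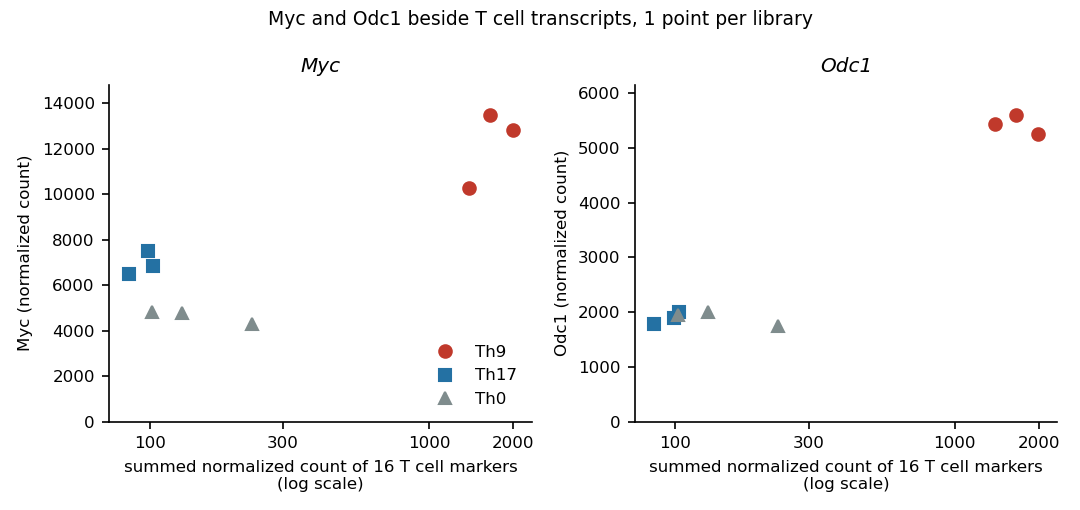
Normalized count of Myc (left) and Odc1 (right) on linear y axes against the summed normalized count of the 16 T cell markers present in both tables on a log x axis, 1 point per library. Th9 libraries are at 1392 to 1990 on the x axis, Th17 libraries at 84 to 103 and Th0 libraries at 102 to 233, and the Th17 points for Myc lie above the Th0 points.

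Max (ENSMUSG00000059436, chr12:76937269-76962248, minus strand) encodes the partner that MYC needs to bind DNA. It had 1200, 1095 and 1129 in Th9 libraries and 928, 1088 and 1030 in Th0 libraries. Each Th9 library was above each Th0 library, by little for Th9 replicate 2 and Th0 replicate 2. The log2 fold change was 0.17 (95% interval -0.02 to 0.36, limma adjusted p of 0.174), and it was called only when libraries were scaled to 1 total without mt-Rnr1, mt-Rnr2 and Gm26917 (0.22, limma adjusted p of 0.0377).

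Odc1 (ENSMUSG00000011179, chr12:17544873-17551502, plus strand) had 5250, 5601 and 5435 in Th9 libraries and 1750, 2011 and 1948 in Th0 libraries. The 2 groups were wide apart and each was tight. The means were 5429 ± 176 with Th9 and 1903 ± 136 with Th0 (SD, n = 3 each), a log2 fold change of 1.51 (SE 0.09, 95% interval 1.33 to 1.70; 2.86-fold; limma adjusted p of 3.5e-07). It stayed called under all 14 alternatives, at 1.45 or more. Gm22748, a gene that lies within Odc1 on the same strand, had normalized counts of 18 to 92 in that table, few beside those of Odc1.

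The ratio of Odc1 to Myc within a library does not depend on how libraries were scaled. It was 0.409, 0.415 and 0.529 with Th9 and 0.408, 0.422 and 0.403 with Th0, so Th9 replicates 1 and 2 fell inside the Th0 range and Th9 replicate 3, which had the least Myc of its group, lay above it.

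Oaz1 (ENSMUSG00000035242, chr10:80826656-80829290, plus strand) encodes antizyme, which is made when polyamines are plentiful and lowers ODC1 protein and polyamine uptake. It had 1806, 1700 and 2115 in Th9 libraries and 2012, 2673 and 2746 in Th0 libraries. Th9 replicate 3 was above Th0 replicate 1, so the groups overlapped. The means were 1874 ± 216 with Th9 and 2477 ± 404 with Th0 (SD, n = 3 each), a log2 fold change of -0.39 (SE 0.12, 95% interval -0.66 to -0.13; limma adjusted p of 0.0339). The call was lost with 1 total per library (limma adjusted p of 0.228) and when the library left out was Th9 replicate 1 (0.129), Th9 replicate 2 (0.156), Th0 replicate 2 (0.106) or Th0 replicate 3 (0.132), while the sign stayed negative throughout. Without Th0 replicate 1 the call held, in a setting where 37.1% of all genes tested were called. The pseudogene Oaz1-ps was listed at 1 to 8, and how reads shared with it were counted is not given in the sources used here.

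Azin1 (ENSMUSG00000037458, chr15:38487430-38519266, minus strand), the antizyme inhibitor, had 2961, 2878 and 2646 with Th9 and 2251, 2842 and 2953 with Th0, with the groups overlapping (log2 fold change 0.09, 95% interval -0.15 to 0.32, limma adjusted p of 0.601). Within libraries, the ratio of Odc1 to Oaz1 was 2.91, 3.29 and 2.57 with Th9 and 0.87, 0.752 and 0.709 with Th0. The ratio was thus higher in every Th9 library than in every Th0 library. Odc1 and Oaz1 differ in length, so the ratio itself does not compare their levels. The ratio of Azin1 to Oaz1 was 1.53 ± 0.241 with Th9 and 1.09 ± 0.0292 with Th0 (SD, n = 3 each), and each Th9 library was above each Th0 library.

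Amd1 (S-adenosylmethionine decarboxylase, which supplies the aminopropyl group), Srm (spermidine synthase) and Sms (spermine synthase) carry out the later steps. They lie at chr10:40287458-40302188 on the minus strand (Amd1), chr4:148591503-148594993 on the plus strand (Srm) and chrX:157443855-157492287 on the minus strand (Sms). Amd1 had 227, 191 and 258 with Th9 and 207, 274 and 236 with Th0, with the groups mixed. Srm had 472, 510 and 400 with Th9 and 379, 398 and 383 with Th0, so that the Th9 libraries were all higher, though Th9 replicate 3 by only a small margin. Sms had 509, 556 and 459 with Th9 and 481, 451 and 453 with Th0, with the groups overlapping. The log2 fold change was -0.09 for Amd1 (95% interval -0.39 to 0.22, limma adjusted p of 0.695), 0.25 for Srm (0.02 to 0.47, 0.106) and 0.13 for Sms (-0.07 to 0.34, 0.341). Srm was called with array weights (0.28, limma adjusted p of 0.0122) and without Th9 replicate 3 (0.34, limma adjusted p of 0.0459). Each of the 3 intervals ends far below the log2 fold change of 1.51 of Odc1. The copy Amd-ps1 was listed at 0 to 6 in that table.

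Sat1 (chrX:155213132-155216449, minus strand) encodes spermidine/spermine acetyltransferase, which starts polyamine breakdown and export. It had 285, 298 and 305 with Th9 and 229, 257 and 247 with Th0. All Th9 libraries were higher than all Th0 libraries, but the log2 fold change of 0.28 (95% interval 0.06 to 0.50) missed the threshold with a limma adjusted p of 0.0636. It passed with a mean of at least 50 as the filter (limma adjusted p of 0.0488), with 1 total per library (0.0486), with 1 total without the 3 RNA genes named above (0.0236) and with array weights (0.0236).

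With Th17 cells, Myc was also higher than with Th0, by a smaller factor, and Odc1 was not. Myc was the 1 of the 9 genes called (1 higher, 0 lower; limma-trend over 14342 genes), where 1.58% of all genes tested were called, 1.19% higher and 0.390% lower. The normalized counts of 3 of the 9 were higher in every Th17 library than in every Th0 library and those of 0 lower throughout, against 12.8% and 10.6% of all genes. These libraries were set against the same Th0 libraries as Th9, so both comparisons share their controls.

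Myc had 7487, 6486 and 6848 in Th17 libraries and 4410, 4869 and 4964 in Th0 libraries of the same table. The groups were apart by more than the range within either. The means were 6940 ± 507 with Th17 and 4748 ± 296 with Th0 (SD, n = 3 each), a log2 fold change of 0.55 (SE 0.09, 95% interval 0.35 to 0.74; 1.46-fold; limma adjusted p of 0.0147). The log2 fold change was 0.48 to 0.59 under all 14 alternatives, but the call was lost with 1 total per library (limma adjusted p of 0.0781) and without Th0 replicate 3 (0.057), Th17 replicate 1 (0.125), Th17 replicate 2 (0.0708) or Th17 replicate 3 (0.118).

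T cell RNA was not higher with Th17. The 16 of 26 T cell markers that were listed summed to 84 to 103 in Th17 libraries and 106 to 240 in Th0 libraries, and Cd3g was at 0, 1 and 0 with Th17 against 8, 5 and 2 with Th0. Of the 5 T cell markers tested, limma called 0. At an unadjusted p under 0.05, 1 was lower with Th17 (Ptprc), and the share of all genes at that cutoff was not counted. B cell markers summed to 87 to 109 with Th17 and to 416, 201 and 159 in Th0 replicates 1, 2 and 3. Of the 6 tested, 2 were called lower, where 0.390% of all genes were. In each fit that left out 1 library, 1 B cell marker was called lower. The part of B cell RNA in the results was not tested.

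Odc1 had 1900, 1790 and 1997 in Th17 libraries and 1799, 2054 and 1999 in Th0 libraries. The groups were mixed. The log2 fold change was -0.04 (95% interval -0.22 to 0.14, limma adjusted p of 0.842), an interval that leaves out a rise as large as that of Myc in the same libraries. The ratio of Odc1 to Myc was 0.254, 0.276 and 0.292 with Th17 and 0.408, 0.422 and 0.403 with Th0, lower in every Th17 library.

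Oaz1 had 1811, 2174 and 2137 with Th17 and 2069, 2731 and 2818 with Th0, with an overlap through Th0 replicate 1 (log2 fold change -0.31, 95% interval -0.57 to -0.04, limma adjusted p of 0.213). Without Th0 replicate 1, which stood apart in its share of mt-Rnr1, mt-Rnr2 and Gm26917, Oaz1 was called lower (-0.45, limma adjusted p of 7.8e-04), and also with array weights (-0.41, limma adjusted p of 9.1e-04). Without that library 16.6% of 14209 genes were called, and 9.70% of the genes tested were called lower. Azin1 had 3331, 3059 and 3193 with Th17 and 2315, 2904 and 3031 with Th0, each Th17 library above each Th0 library, and a log2 fold change of 0.22 that did not pass (95% interval -0.00 to 0.45, limma adjusted p of 0.276). The ratio of Azin1 to Oaz1 was 1.84, 1.41 and 1.49 with Th17 and 1.12, 1.06 and 1.08 with Th0, higher in every Th17 library.

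The other genes did not pass with Th17. Srm had 519, 461 and 424 with Th17 and 390, 407 and 393 with Th0, all Th17 libraries higher (log2 fold change 0.23, 95% interval 0.03 to 0.44, limma adjusted p of 0.221). Max had 942, 984 and 1045 with Th17 and 954, 1111 and 1057 with Th0. Sms had 481, 449 and 433 with Th17 and 494, 461 and 464 with Th0. In both the groups were mixed, with log2 fold changes of -0.07 for Max (limma adjusted p of 0.712) and -0.06 for Sms (0.761). Amd1 had 237, 225 and 216 with Th17 and 213, 279 and 243 with Th0, and Sat1 had 261, 237 and 242 with Th17 and 235, 263 and 254 with Th0. These overlapped as well, with log2 fold changes of -0.11 for Amd1 (limma adjusted p of 0.681) and -0.02 for Sat1 (0.933).

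**Figure D3:**
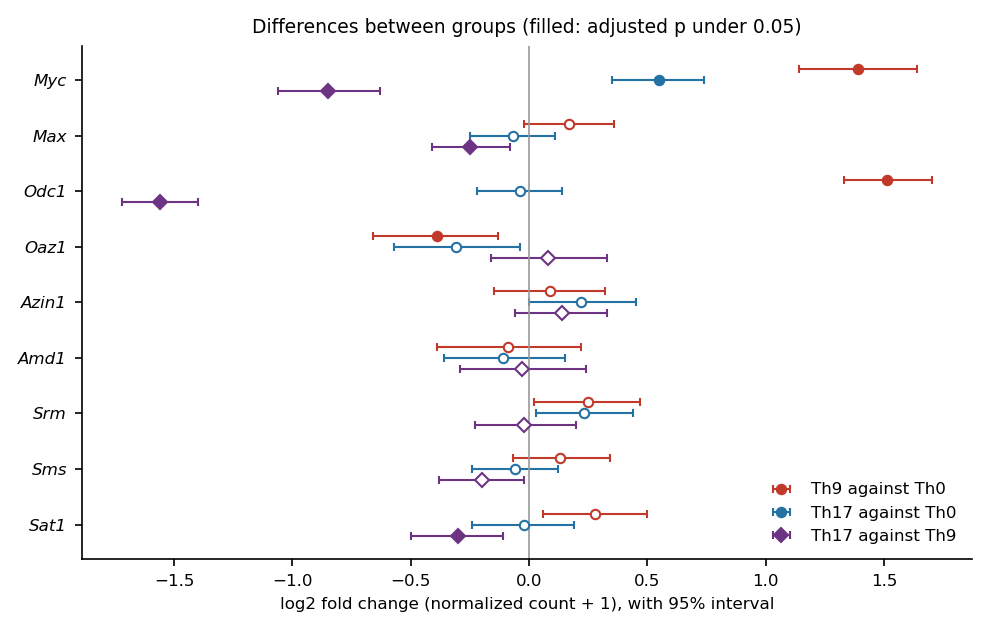
Log2 fold change on the log2(value + 1) scale (x axis) of the 9 genes in the comparisons of Th9 with Th0, Th17 with Th0 and Th17 with Th9; bars are 95% intervals and filled symbols have a limma adjusted p under 0.05. Odc1 stands at 1.51 with Th9 and -0.04 with Th17 against Th0, while Myc stands at 1.39 and 0.55.

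The difference between the 2 kinds of T cell was tested directly. As the tables were normalized separately, the 9 libraries were brought to 1 scale by median-of-ratios factors. Of the 9 genes, 4 were called lower with Th17 than with Th9 and 0 higher, where 20.8% of 14372 genes were called, 11.0% lower and 9.80% higher. Those 4 genes were lower in every Th17 library than in every Th9 library, as were 22.5% of all genes. Azin1, which was not called, was higher in every Th17 library than in every Th9 library, as were 22.5% of all genes. In either direction, 45.0% of all genes did not overlap.

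Odc1 was the one of the 9 with the widest gap, with a log2 fold change of -1.56 (SE 0.07, limma adjusted p of 1.9e-09) for Th17 against Th9. Myc was lower with Th17 by a log2 fold change of -0.85 (SE 0.10, limma adjusted p of 2.5e-05). Both calls held under all 17 alternatives, at -1.64 to -1.52 for Odc1 and -0.96 to -0.77 for Myc. Max (-0.25, SE 0.08, limma adjusted p of 0.0329) and Sat1 (-0.30, SE 0.09, limma adjusted p of 0.0255) were called lower as well. Max lost its call without any 1 Th9 library, Th17 replicate 1 or Th17 replicate 2 (limma adjusted p of 0.0547 to 0.145), and Sat1 without any 1 Th9 library, Th17 replicate 2 or Th17 replicate 3 (0.0513 to 0.108). Oaz1 (0.08, 95% interval -0.16 to 0.33, limma adjusted p of 0.672), Azin1 (0.14, limma adjusted p of 0.352), Srm (-0.02), Amd1 (-0.03) and Sms (-0.20, limma adjusted p of 0.121) did not pass. T cell markers differed between these groups too, at 84 to 103 with Th17 and 1392 to 1990 with Th9 summed over the 16 in both tables, and their part in the result was not tested.

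Levels of different genes can be compared only per length, here as normalized counts per kilobase of summed exon. With Th0 the order was Myc (1704 ± 110), Oaz1 (968 ± 158), Odc1 (559 ± 40), Azin1 (429 ± 60.3), Max (282 ± 22.5), Srm (242 ± 6.26), Sat1 (88.1 ± 5.12), Sms (76.8 ± 2.79) and Amd1 (67.5 ± 9.49 per kilobase, SD, n = 3). In that order, Sms and Amd1 were the only neighbours whose ranges of mean ± SD overlapped. With Th9, Myc stood at 4487 ± 625 and Odc1, at 1594 ± 51.6 per kilobase, was above Oaz1, at 732 ± 84.3, with Max (317 ± 14.9) and Srm (288 ± 34.9) overlapping. With Th17, Myc stood at 2554 ± 187 per kilobase, Oaz1 (798 ± 78.1) was above Odc1 (557 ± 30.4), and Odc1 overlapped with Azin1 (511 ± 21.7). The order from Sat1 down was the same in the 3 groups.

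The genes most like Myc were those with the smallest root mean square difference from it in log2(value + 1) relative to the Th0 mean over the 9 libraries, over the 10490 genes whose mean reached 50 in both tables. The closest 5 were Herpud1 (difference 0.12), which acts in the removal of misfolded proteins at the endoplasmic reticulum, 1810011O10Rik (0.14), Prrg4 (0.16), Galnt3 (0.16), which starts O-glycan chains, and Ifitm3 (0.16), an interferon-induced membrane protein. Herpud1 averaged 432.7 with Th9 against 173.7 with Th0, and 252.7 with Th17 against 178.3 with Th0. Ifitm3 averaged 1128 with Th9 against 483.7 with Th0, and 745.3 with Th17 against 495.7 with Th0. Odc1 ranked 124 of 10489 with a difference of 0.36. Srm ranked 1621 and Oaz1 9501.

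Other polyamine genes were taken from a list of 31, of which 23 were listed in the tables and 22 tested. With Th9, 2 of the 22 were called higher and 1 lower, where 13.4% and 11.9% of all genes were, so the list held no more calls than the background. Its median log2 fold change was 0.02, against -0.01 for all genes. Both that rose carry amino acids into cells: Slc3a2, the heavy chain of amino acid exchangers that also takes part in polyamine transport, and Slc7a1, the arginine, lysine and ornithine carrier. Slc3a2 had 3091, 3065 and 2870 with Th9 and 1458, 1631 and 1670 with Th0 (log2 fold change 0.92, SE 0.08, limma adjusted p of 1.2e-05). Slc7a1 had 2562, 2413 and 2473 with Th9 and 1546, 1759 and 1772 with Th0 (log2 fold change 0.55, SE 0.08, limma adjusted p of 5.0e-04). In both, every Th9 library was well above every Th0 library, and both calls held under all 14 alternatives.

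Atp13a3, a polyamine transporter of endosomes, was lower, with 4377, 4482 and 4626 with Th9 and 5004, 5667 and 5782 with Th0 (log2 fold change -0.28, limma adjusted p of 0.0367). That call was lost with 1 total per library (0.416) and in every fit that left out 1 library except the one without Th0 replicate 1, with limma adjusted p of 0.0839 to 0.171. Among the 19 not called were Dhps and Dohh, which modify the translation factor eIF5A with spermidine, at log2 fold changes of 0.07 (95% interval -0.23 to 0.36) and -0.10 (-0.30 to 0.11), with Dohh lower in every Th9 library. The genes of that factor, Eif5a and Eif5a2, stood at 0.13 (-0.10 to 0.36) and -0.19 (-0.74 to 0.35). The catabolic genes Smox and Paox stood at -0.07 and 0.36, and Oaz2, a second antizyme, at 0.04. With Th17, limma called 0 of the 22, with a median log2 fold change of 0.01 against -0.00 for all genes. At an unadjusted p under 0.05, 1 was higher (Mat2b) and 2 were lower (Atp13a2 and Smox). The share of all genes at that cutoff was not counted. Slc3a2 had 1720, 1636 and 1790 with Th17 and 1499, 1666 and 1714 with Th0, and its log2 fold change was 0.08 (limma adjusted p of 0.661). Between Th17 and Th9 directly, Slc3a2 (-0.85, limma adjusted p of 8.8e-07) and Slc7a1 (-0.52, limma adjusted p of 8.6e-05) were lower with Th17, and Atp13a3 was higher (0.41, limma adjusted p of 0.00103).

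**Figure D4:**
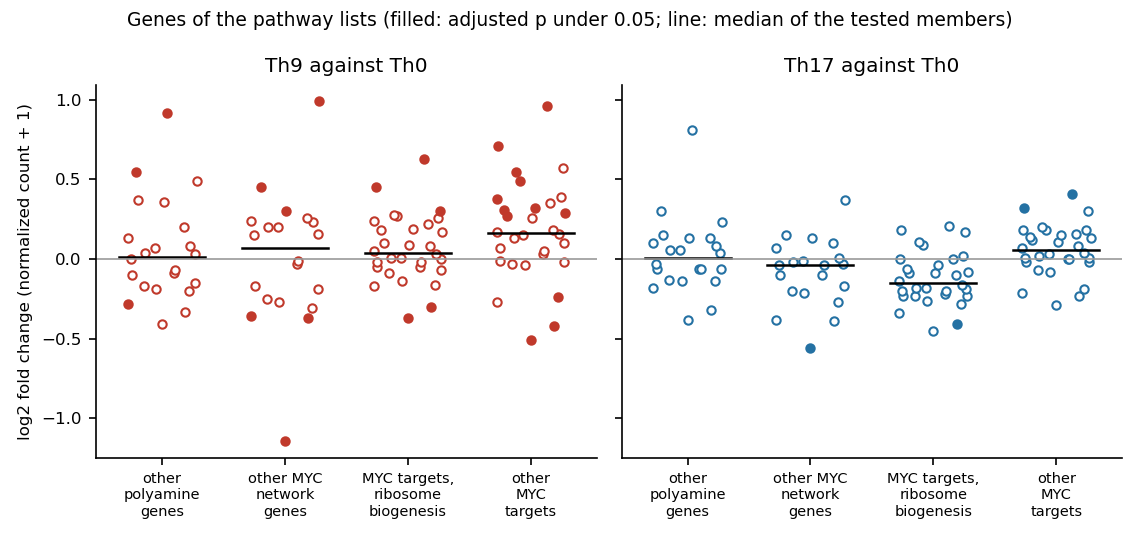
Log2 fold change on the log2(value + 1) scale (y axis) of every tested gene of 4 lists, for Th9 against Th0 (left) and Th17 against Th0 (right); filled points have a limma adjusted p under 0.05 and the line is the list's median. In the Th9 panel 9 of 30 other MYC targets are called higher and 3 lower, and the list of ribosome biogenesis has its median at 0.04 with Th9 and -0.15 with Th17.

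The MYC partner network holds MAX-binding antagonists, MYC cofactors and regulators of MYC protein. Of 25 listed by hand, 20 were tested. With Th9, 3 of the 20 were called higher and 3 lower, close to the 13.4% and 11.9% of all genes, with a median log2 fold change of 0.07. Mxd3, which competes with MYC for MAX, had 131, 149 and 170 with Th9 and 276, 381 and 345 with Th0, every Th9 library far below every Th0 library (log2 fold change -1.14, SE 0.14, limma adjusted p of 1.3e-04). Pim1, a kinase that stabilises and cooperates with MYC, had 183, 210 and 144 with Th9 and 121, 74 and 77 with Th0 (log2 fold change 0.99, SE 0.20, limma adjusted p of 0.00358). Both calls held under all 14 alternatives. Mlxip (0.45, limma adjusted p of 0.00719) lost its call without Th9 replicate 2 (0.0512). Bptf (-0.36, limma adjusted p of 0.024) lost its call with 1 total per library and without Th0 replicate 3 or any 1 Th9 library, with limma adjusted p of 0.0681 to 0.28.

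With Th17, the median log2 fold change of these 20 was -0.04, against -0.00 for all genes. Of the 20, limma called 0 higher and 1 lower, where 1.19% and 0.390% of all genes were. At an unadjusted p under 0.05, 0 were higher and 5 lower. The share of all genes at that cutoff was not counted, so this is no result about the list. Mxd3 was among the 5 that were lower at that cutoff. It was lower in every Th17 library than in every Th0 library but not called (log2 fold change -0.39, limma adjusted p of 0.136). Without Th0 replicate 1, 2 of the 20 were called higher and 6 lower, where 6.85% and 9.70% of all genes were.

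Ribosome biogenesis is the classic output of MYC, and 30 of its targets there were all tested. With Th9, 3 were called higher and 2 lower, with a median log2 fold change of 0.04, against 13.4% and 11.9% of all genes called. Polr1b, a subunit of RNA polymerase I, had 981, 913 and 843 with Th9 and 592, 543 and 639 with Th0 (log2 fold change 0.63, limma adjusted p of 4.7e-04), with no overlap and the call kept under all 14 alternatives. Ubtf, which brings RNA polymerase I to ribosomal DNA, was lower (-0.37, limma adjusted p of 0.0084), but not with 1 total per library (0.182) or without Th9 replicate 2 (0.0555). Rcl1 (0.45, limma adjusted p of 0.00883) lost its call without Th9 replicate 1 (0.0628). Nop58 (-0.30, limma adjusted p of 0.0228) lost its call with 1 total per library and without Th0 replicate 3 or any 1 Th9 library (0.0674 to 0.343). Ncl, which encodes nucleolin, had 76324, 77430 and 77501 with Th9 and 69281, 92114 and 99483 with Th0, with Th0 replicate 1 the lowest of all.

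With Th17, 1 of the 30 was called lower and 0 higher, where 0.390% and 1.19% of all genes were, and the median was -0.15, against -0.00 for all genes. That gene was Ppan, a ribosome assembly factor, with 1285, 1443 and 1419 with Th17 and 1978, 1826 and 1704 with Th0, with no overlap (log2 fold change -0.41, limma adjusted p of 0.0367). Its call was lost with 1 total per library and in every fit that left out 1 library except the one without Th0 replicate 1, with limma adjusted p of 0.0609 to 0.233. Without Th0 replicate 1, 14 of the 30 were called lower and 0 higher (median -0.19), where 9.70% of all genes were called lower. In the direct comparison of Th17 with Th9, 11 of the 30 were called lower and 0 higher (median -0.23), among them Polr1b (-0.45, limma adjusted p of 0.00156), against 11.0% of all genes called lower. That count was 4 without Th9 replicate 1, 7 without Th9 replicate 3, 5 without Th17 replicate 2 or Th17 replicate 3, and 19 without Th0 replicate 1.

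Other MYC targets, in amino acid, nucleotide and sugar metabolism and the cell cycle, were counted in a list of 30, all tested. With Th9, 9 were called higher and 3 lower, with a median log2 fold change of 0.17, against 13.4% and 11.9% of all genes. Slc7a5, the leucine carrier that pairs with the Slc3a2 product, had 3615, 3442 and 3359 with Th9 and 1752, 1784 and 1819 with Th0 (log2 fold change 0.96, SE 0.08, limma adjusted p of 5.1e-06). Hk2, the hexokinase that opens glycolysis, had 3211, 3318 and 3325 with Th9 and 1852, 2119 and 2052 with Th0 (log2 fold change 0.71, SE 0.08, limma adjusted p of 7.7e-05). Bcat1, which transaminates branched-chain amino acids, rose by a log2 fold change of 0.55 (limma adjusted p of 3.9e-04). Cdc25a, a phosphatase that drives entry into S phase, went the other way, with 565, 528 and 549 with Th9 and 738, 806 and 803 with Th0 (log2 fold change -0.51, limma adjusted p of 8.4e-04). In all 4 genes the Th9 and Th0 libraries did not overlap, and the 4 calls held under all 14 alternatives. The count for the list was less steady, at 4 higher without Th9 replicate 1 or Th9 replicate 2, and 1 lower without Th0 replicate 3 or Th9 replicate 1.

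With Th17, 2 of these 30 were called higher and 0 lower, where 1.19% and 0.390% of all genes were, with a median log2 fold change of 0.05. Cdk4, the G1 cyclin-dependent kinase, had 1498, 1322 and 1404 with Th17 and 1012, 1153 and 1016 with Th0 (log2 fold change 0.41, limma adjusted p of 0.0367). Slc7a5 had 2312, 2279 and 2252 with Th17 and 1802, 1823 and 1867 with Th0 (log2 fold change 0.32, limma adjusted p of 0.0457). Neither overlapped between groups. Cdk4 lost its call with 1 total per library and without Th0 replicate 3 or any 1 Th17 library (limma adjusted p of 0.118 to 0.232). Slc7a5 lost its call in 8 of 14 alternatives (0.053 to 0.248), among them every fit that left out 1 library except the one without Th0 replicate 1. Without Th0 replicate 1, 3 of the 30 were called higher and 4 lower, near the 6.85% and 9.70% of all genes. Hk2 stood at 1796, 1804 and 1814 with Th17 and 1905, 2165 and 2106 with Th0, below Th0 in every library and not called.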

How the data were processed

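Total RNA of LLC1 cells from co-cultures was sequenced as 9 libraries (3 groups of 3) after CD4+ cells were removed, per the labels' protocols. The same protocols give 1 µg of input RNA and a stranded SMARTer kit. Per the submitters' processing notes, the tools were STAR 2.4.0a, featureCounts 1.4.5-p1 and DESeq2 1.62 with build mm10; their roles are not given there. Whether counting used the strand is not given in the sources used here, so overlapping genes and near-identical copies can share reads.

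The authors deposited 2 tables of scores per gene: read counts scaled with a size factor for each library, then rounded, separately for Th9 and for Th17 with the same Th0 libraries. This was checked on the values: each Th0 library differed between the tables by 1 factor (1.0285, 1.0216 and 1.0262). Unused columns of values: 0. Depth is the value times the size factor recovered from the spacing of whole numbers, so it is approximate.

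limma-trend (limma 3.58.1, R 4.3.3) was run on log2(value + 1) for genes whose mean reached 10 in the libraries fitted, with the group as the only term and adjustment over all genes. The values are not raw counts, so no count test was used. For Th17 against Th9, libraries of both tables were brought to 1 scale and all 9 entered the fit. The members, gene lists and tests were chosen with earlier results of these data known. Beyond the 9 genes, the text names up to 4 called genes of each list with the smallest adjusted p per comparison with Th0, the 5 genes most like Myc, and Cd3e, Cd3g, Cd4 and Ptprc, except that 1 gene of these lists is not reported here; Ncl, Smox, Paox, Oaz2, Dhps, Dohh, Eif5a, Eif5a2, Mat2b, Atp13a2, Igkc, Ebf1, Lyz2, Cd14, Krt8, Cav1 and Axl were chosen after their values were seen, as were the values repeated for a named gene outside its call. The alternatives were pseudocounts of 0.5 and 5, no filter or a mean of at least 50, 1 total per library with or without mt-Rnr1, mt-Rnr2 and Gm26917, array weights, a replicate block, and each library left out. Promoter sequence is RefSeq on GRCm38.p6; exon lengths are from GENCODE M21.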

Additional observations from a re-analysis of the deposited data

Results flagged for a closer look

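In 4 of the 9 genes a difference was called in the direct test of Th17 against Th9 on 1 scale (limma-trend, adjusted over 14372 genes, 3 libraries per group). All 4 were lower with Th17, where 20.8% of all genes tested were called, 11.0% lower and 9.80% higher. Odc1 differed by a log2 fold change of -1.56 (limma adjusted p of 1.9e-09), with means of 1896 ± 104 in the Th17 libraries and 5429 ± 176 in the Th9 libraries, each on the scale of its own table. Myc differed by -0.85 (limma adjusted p of 2.5e-05), with 6940 ± 507 in the Th17 libraries and 12192 ± 1697 in the Th9 libraries. Max differed by -0.25 (limma adjusted p of 0.0329) and Sat1 by -0.30 (limma adjusted p of 0.0255), and neither had passed against Th0 in either comparison. Max and Sat1 each lost this call in 5 of 17 alternatives. In all 4, every Th17 library was below every Th9 library, which held for 22.5% of all genes tested.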

How the results depend on the processing

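Myc and Odc1 with Th9, and both in Th17 against Th9, stayed called in the same direction under every alternative run. Scaling libraries to 1 total moved the median log2 fold change of all genes with Th9 to 0.10, against -0.01. The share of calls that were higher then was 73.9%, against 53.0%, with Th9, 85.6%, against 75.2%, with Th17, and 28.8%, against 47.1%, in Th17 against Th9. With Th17 it was 46.8% with array weights and 41.4% without Th0 replicate 1. The causes of these shifts and of those that follow were not tested.

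With 1 total per library, 794 of 14452 genes were called lower with Th9 (0 of the 9 genes). With Th17, 119 of 14316 genes were called higher and 20 lower (0 of the 9 genes in either direction). In Th17 against Th9, 681 of 14375 genes were called higher (0 of the 9 genes). With 1 total without mt-Rnr1, mt-Rnr2 and Gm26917, 4 of the 9 genes were called higher with Th9 and 1 lower. There 3997 of 14471 genes were called, 62.1% of them higher. With Th17, 345 of 14330 genes were higher and 102 lower in that setting (1 of the 9 higher). With array weights, 3302 of 14475 genes were higher and 3326 lower with Th9 (4 of the 9 higher and 1 lower). With Th17, 1572 of 14342 genes were then higher and 1789 lower (1 of the 9 in each direction). In Th17 against Th9, 2489 of 14372 genes were higher and 2492 lower (0 of the 9 higher and 5 lower). Leaving out 1 library at a time, Th9 against Th0 gave 1015 to 2594 genes higher and 838 to 2742 lower, with 0 to 1 of the 9 genes lower. Th17 against Th0 gave 14 to 974 higher and 2 to 1378 lower, with 0 to 1 of the 9 genes in each direction. Th17 against Th9 gave 876 to 2243 genes higher and 1086 to 2296 lower, with 0 of the 9 genes higher and 2 to 4 lower.

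Signs turned where the log2 fold change was near 0. With Th9, Amd1 stood at 0.02 with 1 total per library and at -0.19 to 0.03 with 1 library left out, and Azin1 at -0.01 with array weights and at -0.04 to 0.16 with 1 library left out. With Th17, Sat1 stood at 0.00 with 1 total per library, with or without the 3 RNA genes, and at -0.07 to 0.01 with 1 library left out, and Odc1 at -0.10 to 0.00. In Th17 against Th9, Srm stood at -0.11 to 0.06 and Amd1 at -0.14 to 0.08 with 1 library left out.

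The labels do not say whether the replicate numbers pair the libraries, and the correlations below did not settle it. Across genes, deviations of same-numbered libraries from their group means correlated at 0.11, -0.01 and 0.15 for Th9 and Th0. For Th17 and Th0 they correlated at -0.05, -0.08 and 0.04. Libraries of different numbers stood at -0.13 to 0.04 for Th9 and Th0 and at -0.05 to 0.09 for Th17 and Th0. With a replicate block, 4076 genes were called with Th9, 262 with Th17 and 2865 in Th17 against Th9, and no call among the 9 genes changed. Not every library correlated best with the one of its own number. With 3 libraries per group, a difference of the size seen for Srm or Sat1 lies at the edge of what passes.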

Other observations

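Among the Th9 libraries, replicate 3 had the lowest Myc (10269), Srm (400), Sms (459) and Azin1 (2646) and the highest Oaz1 (2115), Amd1 (258) and Sat1 (305), together with the smallest sum of the 26 T cell markers (1791, against 2611 and 2185 in replicates 1 and 2). Its Odc1 (5435) lay between those of the other 2 libraries. Among the Th0 libraries, replicate 1 had the lowest Myc, Max, Odc1, Oaz1, Azin1, Amd1, Srm and Sat1 of its group and the highest Sms (481), with the largest sums of T cell and B cell markers (255 and 405 in the table with Th9).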
